A study of Mus musculus with 17 samples.

Results

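Angptl4, Pdk4, Cpt1a, Ucp2, Acss1 and Txnip are 6 genes of fuel choice, which act when cells turn between glucose, fatty acids, ketone bodies and acetate. Their RNA was followed in the hypothalamus of diabetic, leptin-deficient and control mice. The genes were chosen by name, and every probe set that the platform annotation gives to one of them was used. Of the 6 genes, 5 had a probe set with their symbol, 11 of the 22690 probe sets in all, and Ucp2, a mitochondrial carrier of the uncoupling protein family, is not analysed here. A total of 6 of the 11 were bright enough to be among the 13576 probe sets tested.

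The samples were 17 hypothalami from male C57Bl/6 mice at 9 weeks of age, with 1 array each. The STZ group was 6 wildtype mice that had received streptozotocin, which kills pancreatic beta cells and so removes most insulin, in 1 intraperitoneal injection of 200 µg per g of body weight. The 5 ob/ob mice carry the leptin mutation that leads to overeating, obesity and insulin resistance, and the labels name no agent given to them. The 6 control mice were wildtype and received vehicle, so they match the STZ mice in injection, while ob/ob mice differ from them in genotype. Blood glucose, insulin, food intake before sampling and the time from injection to sampling are not given in the sources used here. Each value is a MAS5 signal, a linear fluorescence summary of the probes of 1 probe set. Signals are compared between mice within a probe set only, because probe sets differ in how brightly they report the same amount of RNA. The median signal of an array lay between 637.6 and 707.05, and the number of arrays limits the precision. Of 10 measured hypothalamic markers 8 were bright enough to test. Hcrt (orexin) had signals of 5022.5 to 10501.1 over the 17 arrays and Npy (neuropeptide Y) of 2572.5 to 4509.5. Nkx2-1 and Otp were dim, at 241.9 to 428.9 and 201.7 to 320.1. The 3 measured pituitary markers added up to at most 281.3 in STZ, 274.8 in ob/ob and 599.2 in control mice. The striatal marker Rgs9 had 2288.4 to 4349.4, so these signals do not show how much neighbouring tissue was taken along.

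When insulin is low, fat tissue releases fatty acids and the liver makes ketone bodies, and many organs respond with a shared set of genes. Angptl4 restrains the enzyme that takes fat from circulating lipoproteins, Cpt1a admits long-chain fatty acids to mitochondria, Pdk4 closes the pyruvate dehydrogenase gate that would burn glucose, and Acss1 turns acetate into acetyl-CoA inside mitochondria. Txnip binds thioredoxin, limits glucose uptake, and is known in many cell types for a strong response to high glucose through the transcription factors MondoA and ChREBP. In peripheral tissues the fatty acid sensor PPARalpha and glucocorticoids raise several of these genes during fasting.

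None of the 5 measured genes passed the test after adjustment, in either model or between the models. The clearest separation was that of Acss1, whose signal averaged 0.838 of the control signal in STZ mice and 0.861 of it in ob/ob mice, with no overlap between either model and the controls. Angptl4 averaged 1.38 times the control signal in STZ mice and 1.23 times in ob/ob mice. The dimmer Txnip probe set stood higher in both models by a margin that rested largely on 1 dim control array, while Cpt1a and Pdk4 showed no difference beyond the spread between mice.

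With Benjamini-Hochberg adjustment of the limma test at 0.05, STZ against control mice gave 0 calls among the 6 tested probe sets, against 0.0516% of all probe sets tested. In ob/ob against control mice 0 of 6 passed, against 0.125%, and in ob/ob against STZ mice 0 of 6, against 0.0368%. At an unadjusted p under 0.05 there were 3 of 6 in STZ against control mice, against 8.24% of all probe sets tested: 2 were higher, where all had 3.87%, and 1 lower, where all had 4.38%. There were also 3 of 6 in ob/ob against control mice, against 11.9%: 2 were higher (5.75% of all) and 1 lower (6.12%). In ob/ob against STZ mice there were 0 of 6, against 3.93% of all (1.93% higher and 2% lower). The genes were picked with earlier results of these arrays known, so these shares describe the genes and are no independent evidence. Both models were set against the same 6 controls, so a low or high control array moves both comparisons at once. The median size of the log2 difference over the 6 probe sets, sign disregarded, was 0.19 in STZ and 0.19 in ob/ob against control mice, and over all probe sets tested it was 0.06 and 0.07. Their within-group standard deviation on the log2 scale was 0.20 for Angptl4, 0.15 and 0.29 for Cpt1a, 0.081 for Acss1 and 0.32 and 0.73 for Txnip. The median over all probe sets tested was 0.14. A wider spread alone makes such differences larger, and its share was not tested.

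**Figure D1:**
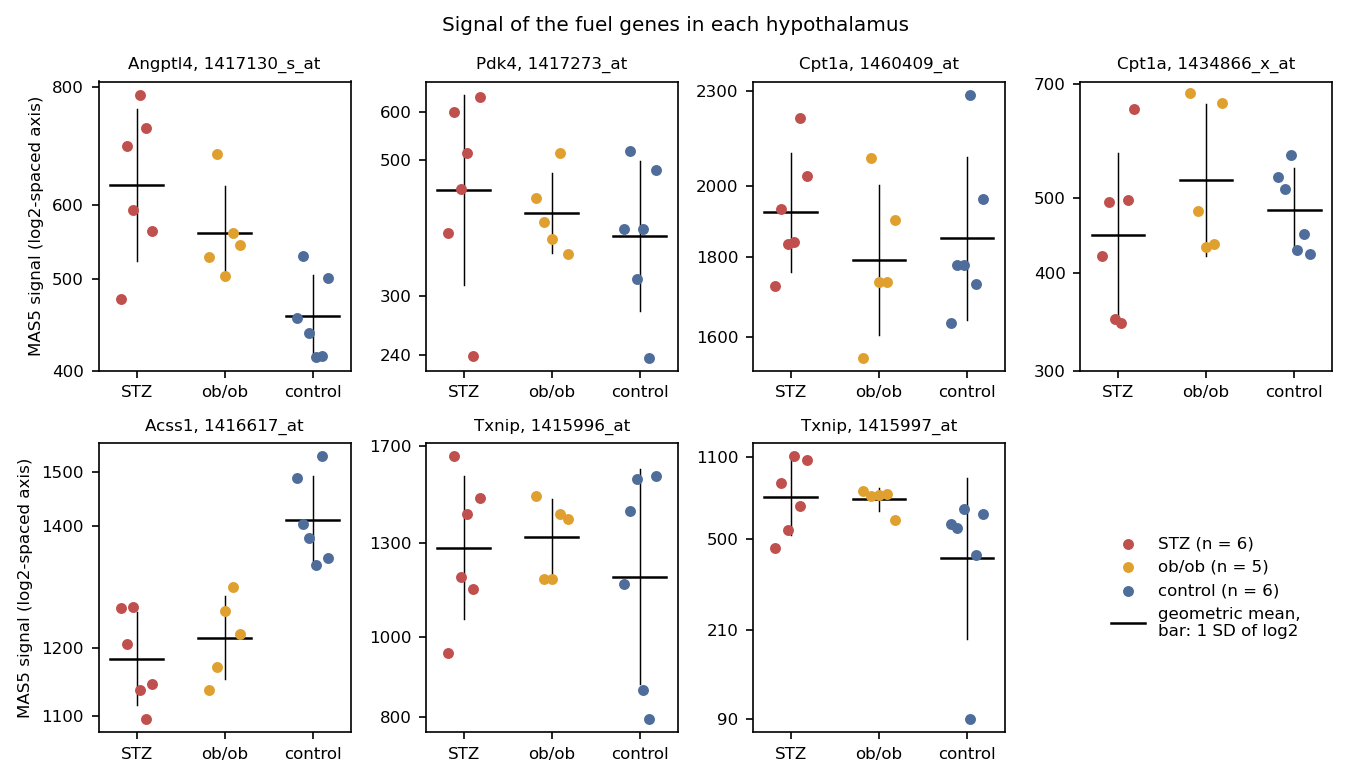
MAS5 signal (vertical axis, log2-spaced) of the member probe sets in each mouse, with STZ and ob/ob left of control; each point is 1 array, each line a geometric mean and each bar 1 SD of log2 signal. Acss1 on 1416617_at lies between 1095.9 and 1263.5 in STZ and between 1137.9 and 1296.1 in ob/ob mice, under the lowest control at 1332.9, and 1 control array stands at 89.9 for Txnip on 1415997_at.

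Angptl4, a secreted inhibitor of lipoprotein lipase, was read by probe set 1417130_s_at. Its signal in STZ mice had a lowest value of 476.8, a median of 641.85 and a highest of 785. In ob/ob mice the signals were 527.6, 679.5, 504.2, 559.7 and 543.7. In control mice the lowest was 413.4, the median 446.65 and the highest 529.4. Of the STZ mice 5 of 6 lay above every control, and of the ob/ob mice 3 of 5 did, so both models overlapped the controls. The log2 difference was 0.46 ± 0.12 for STZ against control mice (SE, n = 6 and 6; 95% interval 0.22 to 0.71; adjusted p = 0.204). For ob/ob against control mice it was 0.29 ± 0.12 (n = 5 and 6; 0.034 to 0.55; adjusted p = 0.351). Between the models, ob/ob against STZ, it was -0.17 ± 0.12, with an interval of -0.43 to 0.090 that holds no difference. Whichever array was left out, the STZ difference stayed between 0.40 and 0.54, with adjusted p from 0.0684 to 0.486. The other Angptl4 probe set, 1453410_at, was near the bottom of the scale, at 3.4 to 39.6 in STZ, 6.7 to 26.8 in ob/ob and 2.3 to 31.5 in control mice. At that level its log2 differences from control, 0.39 ± 0.68 in STZ and 0.53 ± 0.71 in ob/ob mice, were smaller than their errors.

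Lipoprotein lipase itself and its neighbours were taken from a list of 7 genes, of which 3 were bright enough to test and 0 passed in either model. Lpl, the lipase that Angptl4 inhibits, averaged 989 in ob/ob and 686 in control mice, a log2 difference of 0.53 ± 0.15 (adjusted p = 0.159). In STZ mice Lpl averaged 792, a difference of 0.21 ± 0.15 (adjusted p = 0.755). Lmf1, which matures the lipase, stood at -0.16 in both models, and Vldlr, a receptor for triglyceride-rich particles, at -0.0056 in STZ and 0.13 in ob/ob mice, with 0.034 and 0.11 on its _x_at probe set.

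Cpt1a, the outer-membrane enzyme that commits long-chain fatty acids to oxidation, was bright on 1460409_at. In STZ mice its signal ran from 1725.4 over a median of 1887.45 to 2211.8. The ob/ob mice had 1551.4, 2083.8, 1735.7, 1734.3 and 1902, and the controls ran from 1633 over a median of 1778.55 to 2288.1. The 3 groups overlapped over most of their range. The log2 difference from control was 0.056 ± 0.084 in STZ (95% interval -0.12 to 0.23) and -0.046 ± 0.088 in ob/ob mice (-0.23 to 0.14; adjusted p = 0.900 and 0.892). On the log2 scale these intervals leave room for a rise of up to 0.23 in STZ mice and a fall of up to 0.23 in ob/ob mice. The _x_at probe sets of Cpt1a, whose probes can bind other transcripts, did not point the same way. On 1434866_x_at the difference was -0.11 ± 0.16 in STZ and 0.13 ± 0.17 in ob/ob mice, and on 1438156_x_at, which was below the signal filter, it was 0.21 ± 0.15 in STZ and -0.049 ± 0.16 in ob/ob mice. No Cpt1a probe set gave a difference from control above 1.5 times its error.

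Other genes of fatty acid entry and oxidation gave a similar picture. Of the 31 in the list 20 were tested and 0 passed in either model, with a median log2 difference of -0.031 in STZ and 0.0021 in ob/ob mice, against 0.00060 and -0.00051 over all probe sets tested. Slc27a1, a fatty acid transporter, averaged 594 in STZ and 479 in control mice (0.31 ± 0.14, adjusted p = 0.555). Acsl6, a brain acyl-CoA synthetase, averaged 7126 in STZ and 7060 in ob/ob mice, against 7766 in controls, with every ob/ob mouse below every control (adjusted p = 0.434 in STZ and 0.224 in ob/ob). Of all probe sets tested 1.07% lay apart in that way. Genes were taken from each list for a small p, which favours such separation. Hadhb, a subunit of the mitochondrial trifunctional protein, stood at -0.061 in STZ and -0.15 in ob/ob mice (adjusted p = 0.769 and 0.212). On its _x_at probe set Hadhb stood at -0.16 and -0.20 (adjusted p = 0.374 and 0.117). Rxrb, a nuclear receptor that pairs with the PPARs, stood at -0.16 in STZ and 0.06 in ob/ob mice.

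For the use of ketone bodies, 5 of 8 listed genes were tested and 0 passed. Oxct1, the enzyme that lets the brain burn ketone bodies, averaged 12567 in STZ and 13403 in control mice without overlap of the groups (log2 -0.093 ± 0.038, adjusted p = 0.514). Of all probe sets tested 0.302% were lower without overlap in that comparison. In ob/ob mice Oxct1 averaged 12892, a difference of -0.056 ± 0.039. The other probe sets of Oxct1 lay on both sides of 0 in both models. Bdh1, the hydroxybutyrate dehydrogenase, stood at -0.05 in STZ and 0.13 in ob/ob mice, and Slc16a1, a transporter of lactate and ketone bodies, at 0.11 in STZ and -0.0054 in ob/ob mice.

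Pdk4, a kinase that switches off pyruvate dehydrogenase in fasting muscle and heart, was below the signal filter on its probe set 1417273_at, so its values come from the fit of 22626 probe sets without that filter. That fit called 0.0309% of them in STZ and 0.0619% in ob/ob against control mice and 0.00442% in ob/ob against STZ mice, and Pdk4 in none. STZ mice had signals of 239.6 to 634.5 with a median of 480.9. The ob/ob mice had 433.1, 396.8, 371.9, 514.2 and 350.6. Control mice had 237.8 to 517.8 with a median of 385.7. The spread within the STZ and the control group exceeded the distance between any 2 group medians. The log2 difference from control was 0.25 ± 0.22 in STZ mice (95% interval -0.21 to 0.71, adjusted p = 0.889) and 0.12 ± 0.23 in ob/ob mice (-0.36 to 0.60, adjusted p = 0.934). Intervals this wide exclude neither no change nor a rise of 1.5-fold in STZ mice.

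Of the 13 other genes of the pyruvate dehydrogenase gate 8 were tested and 0 passed. The related kinases Pdk1, Pdk2 and Pdk3 had log2 differences of -0.0065, 0.047 and -0.092 in STZ mice. In ob/ob mice they had -0.017, 0.040 and -0.18. A second Pdk1 probe set gave 0.15 in STZ and 0.17 in ob/ob mice (adjusted p = 0.757 and 0.562). Dlat and Dld, subunits of the dehydrogenase complex, stood at -0.06 and -0.11 in STZ and at -0.03 and -0.07 in ob/ob mice, and Mpc1, a subunit of the pyruvate carrier, at -0.04 in STZ and 0.01 in ob/ob mice. For the uncoupling carriers, Slc25a14 stood at -0.20 in STZ and -0.16 in ob/ob mice and Ucp3 at 0.03 and 0.04, none passing, and Ucp1 was dim, averaging 53 in STZ, 54 in ob/ob and 70 in control mice.

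**Figure D2:**
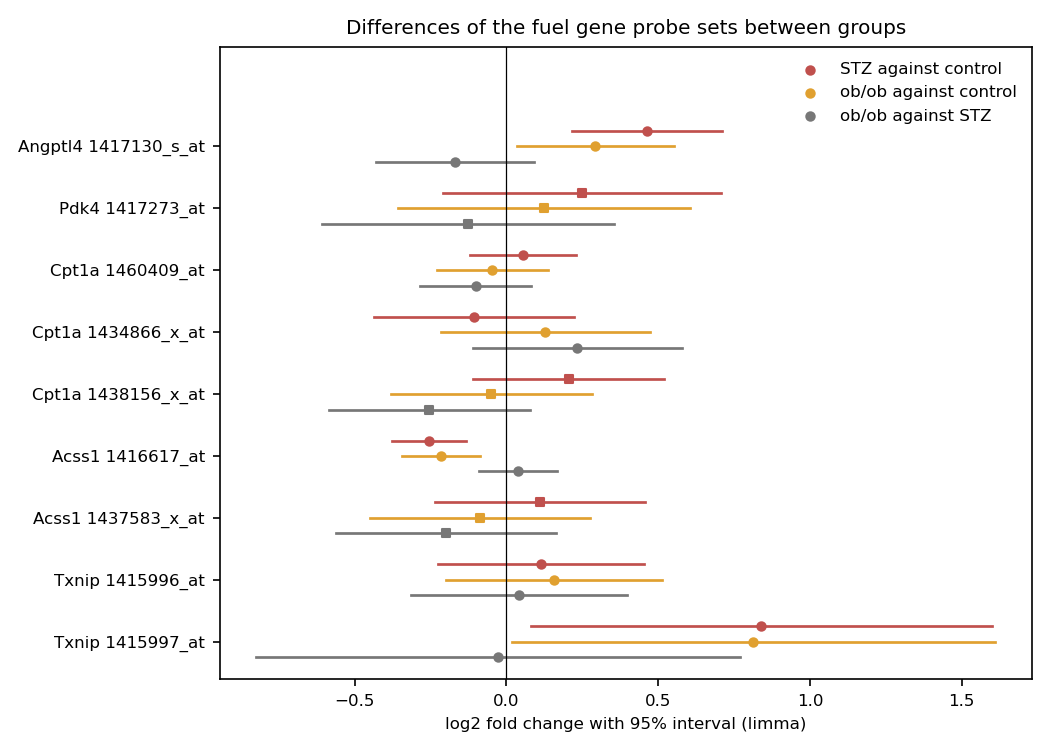
Log2 difference of the member probe sets with a mean signal over 100 in the 3 comparisons (horizontal axis, with 95% intervals from limma); circles come from the fit with the signal filter and squares from the fit without it. Acss1 on 1416617_at sits at -0.25 in STZ and -0.22 in ob/ob against control mice with short intervals, and Txnip on 1415997_at has the widest, 0.081 to 1.60 in STZ mice.

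Acss1, the mitochondrial acetyl-CoA synthetase, is the member whose groups separated, and the 250 bases before its start (RefSeq, GRCm38.p6, chr2:150668241-150668490, minus strand) are shown for that reason. Capitals mark the GC boxes (GGGCGG or its complement), which are present in 32.7% of promoter windows of this length.

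Acss1 promoter: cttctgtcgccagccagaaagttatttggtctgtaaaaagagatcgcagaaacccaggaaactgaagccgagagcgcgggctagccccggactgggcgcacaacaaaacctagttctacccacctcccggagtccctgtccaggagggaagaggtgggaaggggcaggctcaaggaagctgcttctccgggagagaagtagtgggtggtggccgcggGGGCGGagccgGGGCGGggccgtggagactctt

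The GC boxes lie at -33 to -28 and -22 to -17 from the start. No other motif searched is in this window.

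On 1416617_at the Acss1 signal in STZ mice was 1262.6, 1205.6, 1263.5, 1138, 1095.9 and 1146.4. In ob/ob mice it was 1137.9, 1171.1, 1257, 1296.1 and 1221.8. In control mice it was 1489.1, 1405, 1379.9, 1332.9, 1530.7 and 1345.8. Each of the 6 STZ and the 5 ob/ob mice lay below the lowest control. Among all probe sets tested, groups lay apart without overlap for 0.567% in STZ against control mice (0.265% higher and 0.302% lower) and for 1.91% in ob/ob against control mice (0.84% higher and 1.07% lower). Of the 6 member probe sets tested this was the only one in each comparison, and in ob/ob against STZ mice there was none, against 0.42% of all (0.147% higher and 0.273% lower). The log2 difference was -0.25 ± 0.059 in STZ mice (95% interval -0.38 to -0.13, adjusted p = 0.146) and -0.22 ± 0.062 in ob/ob mice (-0.34 to -0.088, adjusted p = 0.149). Between the models, ob/ob against STZ, it was 0.038 ± 0.062, with an interval of -0.090 to 0.17. The signal was steady within groups: its standard deviation of 0.081 on the log2 scale was lower than that of all but 13.2% of the probe sets tested. Leaving out any 1 array kept the STZ difference between -0.27 and -0.23 and the ob/ob difference between -0.24 and -0.19, and it passed the threshold in none of these fits.

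The other probe sets of Acss1 did not show this difference. On 1437583_x_at, below the filter, the signal was 263.9 to 550.5 in STZ, 243.8 to 390.9 in ob/ob and 304.4 to 409 in control mice, with log2 differences from control of 0.11 ± 0.17 and -0.087 ± 0.17. On 1437582_at the signal was 4.5 to 56 in STZ, 10 to 62.5 in ob/ob and 9.9 to 47.9 in control mice, with differences of 0.039 ± 0.58 and 0.052 ± 0.60. The 95% interval on 1437583_x_at was -0.23 to 0.46 in STZ mice, just short of the -0.25 seen on 1416617_at, and -0.45 to 0.28 in ob/ob mice, which includes the -0.22 seen there. The intervals on 1437582_at spanned more than 1 log2 unit on either side of 0.

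Acss2, the cytosolic and nuclear relative of Acss1, was read by probe sets of its own. Its signal in STZ mice was 2458.9, 2263.2, 2062, 1996.6, 2152.6 and 2651.3. In ob/ob mice it was 2414.1, 2209.4, 2272.5, 2517.3 and 2334.7. In control mice it was 2867.1, 2468.3, 2914.7, 2507.2, 2609.4 and 2769.5. Of the STZ mice 5 of 6 lay below the lowest control and of the ob/ob mice 4 of 5, so the groups overlapped. The log2 difference was -0.25 ± 0.067 in STZ and -0.19 ± 0.070 in ob/ob mice (adjusted p = 0.237 and 0.271). A second Acss2 probe set gave -0.14 in STZ and -0.09 in ob/ob mice. Of the other genes around acetyl-CoA, Acly, the ATP citrate lyase, stood at -0.06 in both models on its brightest probe set. On a second one Acly stood at -0.16 in STZ and -0.098 in ob/ob mice (limma, adjusted p = 0.361 and 0.500). There every STZ mouse lay below every control, as for 0.302% of all probe sets tested. On an _x_at probe set Acly stood at -0.044 and 0.0069. Sirt3, the mitochondrial deacetylase that activates Acss1, averaged 1978 in ob/ob and 1729 in control mice without overlap (0.19 ± 0.063, adjusted p = 0.208), and 1707 in STZ mice. In ob/ob against control mice 0.84% of all probe sets tested were higher without overlap. Of the 5 genes in this list 4 were tested and 0 passed.

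Txnip, the thioredoxin-interacting protein, was read by 2 probe sets that were both bright enough to test. Its promoter (RefSeq, GRCm38.p6, chr3:96557707-96557956, plus strand) is shown because it holds a pair of E-box-like repeats of the kind that ChREBP and MondoA bind at glucose-responsive genes. Capitals mark every match to the motifs searched, on both strands.

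Txnip promoter: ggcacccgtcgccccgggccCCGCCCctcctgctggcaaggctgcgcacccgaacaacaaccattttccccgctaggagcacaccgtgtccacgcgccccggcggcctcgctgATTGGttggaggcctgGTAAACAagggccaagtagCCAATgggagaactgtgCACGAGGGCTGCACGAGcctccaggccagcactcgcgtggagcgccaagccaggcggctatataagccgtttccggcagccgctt

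The repeat pair CACGAGGGCTGCACGAG, at -85 to -69, matches CACGNG, any 5 bases and CACGNG again, which 0.0457% of 32851 promoter windows hold. A forkhead box, GTAAACA, at -121 to -115, is held by 3.17%. CCAAT boxes at -137 to -133 and -102 to -98 (33.8% of windows) and a GC box at -230 to -225 complete the matches, none of which overlap. The direct repeat of AGGTCA with 1 base between the copies, a PPAR pattern found in 0.0335% of windows, was in none of the 5 member promoters on hand. The repeat pair was found in Txnip alone among those 5. A match of letters does not show that a factor binds there.

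The brighter Txnip probe set, 1415996_at, had signals of 955.2, 1654.4, 1183, 1407.6, 1143 and 1473.8 in STZ mice. The ob/ob mice had 1479.7, 1176.5, 1173.8, 1406.3 and 1390.4. The controls had 1158.4, 1421.7, 1551.2, 862, 794.9 and 1566.4. All ob/ob mice and all but 1 of the STZ mice lay inside the control range. The log2 difference was 0.12 ± 0.16 in STZ mice (95% interval -0.22 to 0.45, adjusted p = 0.892) and 0.16 ± 0.17 in ob/ob mice (-0.20 to 0.51, adjusted p = 0.768). The control mice themselves spanned almost the whole range of the series.

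The dimmer one, 1415997_at, had signals of 459.5, 854.6, 548.6, 1107.4, 686.1 and 1064.6 in STZ mice. The ob/ob mice had 790.4, 753.6, 763, 775.1 and 603.2. The controls had 578.7, 556, 665.6, 89.9, 431.2 and 636.7. Of these, control array 4 at 89.9 stood far below every other array, and the groups overlapped. The log2 difference from control was 0.84 ± 0.36 in STZ mice (95% interval 0.081 to 1.60, adjusted p = 0.544) and 0.81 ± 0.38 in ob/ob mice (0.017 to 1.61, adjusted p = 0.406). Without control array 4 it was 0.40 in STZ and 0.37 in ob/ob mice (adjusted p = 0.629 and 0.492). On the brighter probe set the same control array had the second-lowest control signal, 862. Between the models, ob/ob against STZ, the difference was 0.042 ± 0.17 on the brighter and -0.027 ± 0.38 on the dimmer probe set.

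Among the other genes of glucose sensing and the thioredoxin system, 13 of 18 were tested and 0 passed on their representative, the brightest probe set. Slc2a1, which carries glucose across brain capillaries and into glia, averaged 5118 in STZ and 5160 in ob/ob mice, against 4189 in controls, without overlap (log2 0.29 ± 0.064 and 0.30 ± 0.067, adjusted p = 0.134 and 0.0687). Of all probe sets tested 0.265% were higher without overlap in STZ and 0.84% in ob/ob against control mice. A second Slc2a1 probe set, named after its values were seen, passed in both models at 0.31 ± 0.051 and 0.29 ± 0.054 (adjusted p = 0.0199 and 0.0305). With 1 array left out its difference stayed between 0.29 and 0.34 in STZ mice, passing in 8 of 12 fits (not without control array 1 or 5 or STZ array 4 or 5), and between 0.26 and 0.31 in ob/ob mice, passing in 6 of 11 (not without control array 1, 3 or 5 or ob/ob array 2 or 5). Under the alternatives it passed in 11 of 12 in STZ mice, the exception being median centring (adjusted p = 0.114), and in 8 of 12 in ob/ob mice. There it did not pass with median centring (adjusted p = 0.110), without a trend (0.0535), with only those groups fitted (0.0915) or with the neighbouring region level as a covariate (0.157). Hk2, a hexokinase, averaged 461 in STZ and 493 in ob/ob mice, against 540 in controls. Txnrd1, a thioredoxin reductase, stood at -0.047 in STZ and -0.13 in ob/ob mice, and Mlx, the partner of ChREBP and MondoA, at -0.07 and 0.05. Arrdc4, the closest relative of Txnip and likewise a ChREBP and MondoA target, was below the filter and stood at 0.13 ± 0.17 in STZ and 0.25 ± 0.18 in ob/ob mice. A second and dimmer Arrdc4 probe set had the opposite order, 0.47 ± 0.42 in STZ and 0.03 ± 0.44 in ob/ob mice.

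The signals that raise fuel genes in other organs were read from 2 further lists. Of 11 fasting-signal genes 8 were tested and 0 passed, with a median log2 difference of 0.18 in STZ and 0.27 in ob/ob mice. Klf15, a transcription factor of fasting metabolism, averaged 1181 in STZ and 1290 in ob/ob mice, against 940 in controls (adjusted p = 0.434 and 0.122). Ddit4, a brake on mTOR, stood at 0.42 ± 0.17 in STZ and 0.28 ± 0.18 in ob/ob mice, Sesn1 at 0.15 and 0.25, and Irs2, an insulin receptor substrate, at 0.07 ± 0.21 and -0.44 ± 0.22. The other tested Sesn1 probe sets gave -0.04 and 0.04 in STZ and 0.12 and 0.14 in ob/ob mice. All 15 glucocorticoid-responsive genes were tested. In STZ mice 0 of 15 passed with a median of 0.12, and in ob/ob mice 1 of 15 passed with a median of 0.28. In each model 14 of the 15 averaged higher than in control mice. Their mean log2 level differed from control by 0.26 in STZ and 0.40 in ob/ob mice (exact two-sided permutation, adjusted p over 45 tests = 0.122 and 0.0731). The list was chosen with earlier results of these arrays known, so these values describe it and are no independent evidence. Whether glucocorticoids differed between the groups was not tested. The gene that passed was Plin4, a lipid droplet protein, at 1210 in ob/ob and 589 in control mice (1.04 ± 0.20, adjusted p = 0.0449). With 1 array left out the Plin4 difference stayed between 0.94 and 1.18 and passed in 3 of 11 fits, those without control array 2 or 4 or ob/ob array 4, and it passed under 5 of 11 alternatives (adjusted p 0.0202 to 0.218). Plin4 averaged 1027 in STZ mice (0.80 ± 0.19, adjusted p = 0.176). Tsc22d3 stood at 0.24 in STZ and 0.26 in ob/ob mice (adjusted p = 0.103 and 0.0558), Fkbp5 at 0.11 and 0.43, and Klf9 at 0.08 and 0.23. Another Tsc22d3 probe set gave 0.22 in both models, and an _x_at one 0.08 and 0.01. A second Fkbp5 probe set gave 0.34 and 0.55 (limma, adjusted p = 0.576 and 0.162). The other tested Klf9 probe sets ran from -0.08 to 0.12 in STZ and from -0.04 to 0.26 in ob/ob mice. Over all probe sets tested the median was 0.00060 in STZ and -0.00051 in ob/ob mice.

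**Figure D3:**
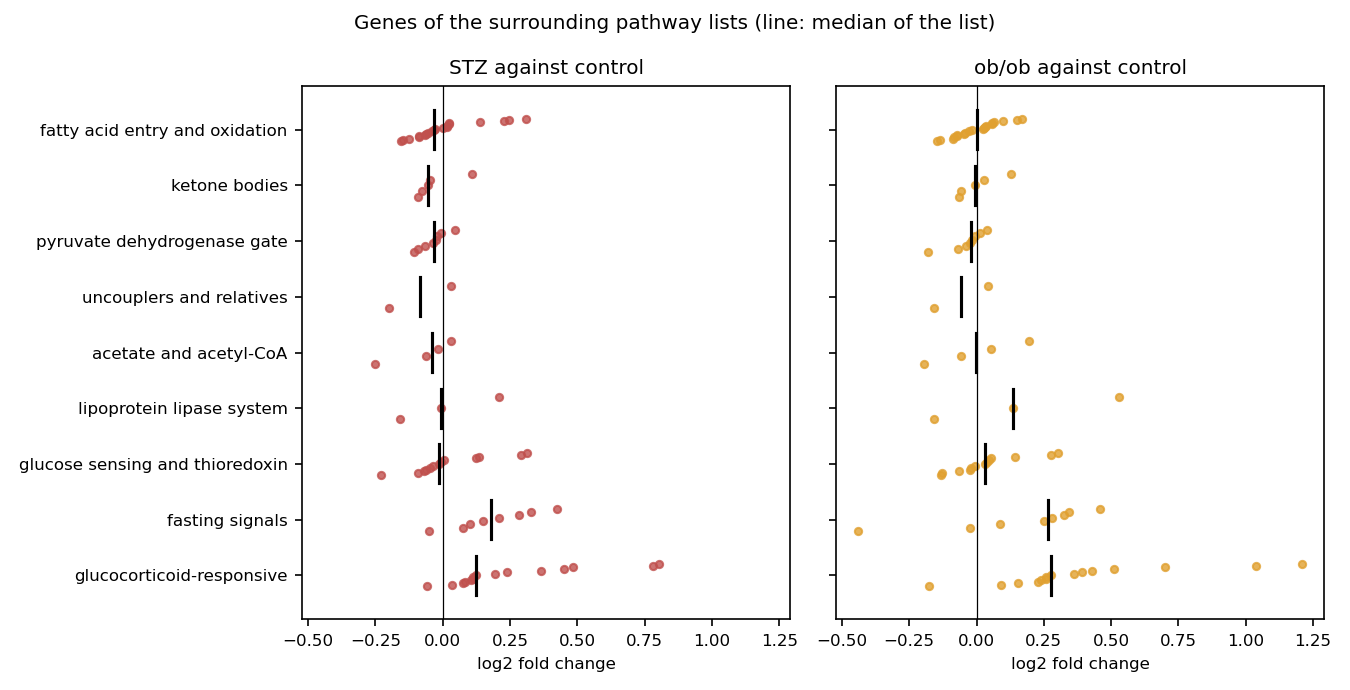
Log2 difference from control of each tested gene (points) in the fuel gene lists, with STZ and ob/ob in separate panels; the line in each list is its median. The list medians lie between -0.085 and 0.18 in STZ and between -0.059 and 0.28 in ob/ob mice.

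In whole hypothalamus, fewer cells of a type and less RNA per cell cannot be told apart, so marker levels are given beside the member results. The 7 of 7 measured astrocyte markers summed to 43552.9 to 48285.5 in STZ, 44720.4 to 47598.1 in ob/ob and 45144.7 to 47903.9 in control mice. Their mean log2 level differed from control by -0.025 in STZ and -0.0065 in ob/ob mice (exact two-sided permutation, adjusted p over 45 tests = 0.527 and 0.815). The 9 of 9 markers of endothelium and pericytes summed to 13548.3 to 15035.5 in STZ, 13547 to 15002.9 in ob/ob and 13705 to 15642.6 in control mice (adjusted p = 0.443 and 0.475). With the astrocyte level as a covariate, chosen after the data were seen, the Acss1 difference was -0.27 in STZ and -0.22 in ob/ob mice, and with the vascular level it was -0.29 and -0.25. The 13 measured markers of 18 for the neighbouring striatum, cortex and thalamus summed to 17178.9 to 22123.6 in STZ, 21225.5 to 24767.9 in ob/ob and 15037.7 to 22969.6 in control mice (adjusted p = 0.415 and 0.244). With that level as a covariate the Acss1 difference was -0.26 in STZ and -0.22 in ob/ob mice, and Angptl4 stood at 0.50 and 0.35. The 10 measured hypothalamic markers of 13 summed to 36699.9 to 53953.1 in STZ, 35013.9 to 42167.8 in ob/ob and 37136.9 to 46787.4 in control mice (adjusted p = 0.415 and 0.0731). The 4 measured choroid plexus markers of 5 summed to 506 to 794.3 in STZ, 674.9 to 7228.3 in ob/ob and 528.2 to 681.3 in control mice. Their mean level was higher by 1.02 on the log2 scale in ob/ob than in control mice (exact permutation, adjusted p = 0.0487), with 2 of the 4 higher. All 4 probe sets used for this were below the signal filter. For 1 listed plexus gene another probe set was above the filter. Its log2 difference from control was 2.35 in ob/ob and 0.32 in STZ mice (limma, adjusted p = 0.0558 and 0.899). Ttr, the plexus transport protein, reached 6654.4. The part of choroid plexus RNA in the ob/ob values of these genes was not tested. No marker was listed at 0.

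With the group means taken off, the member probe sets were compared array by array over the 17 arrays. Over the 21 pairs of the 6 tested probe sets and that of Pdk4, Pearson r ran from -0.55 to 0.67 with a median of 0.012, so the fuel genes did not vary as 1 block from mouse to mouse. The highest r was between the Txnip probe sets, 0.67 (Spearman 0.80). Pdk4 varied with the brighter Txnip probe set (r 0.61, Spearman 0.65), and with the 2 arrays farthest from the median left out r was 0.52. Cpt1a on 1460409_at and Acss1 ran against each other (r -0.55, Spearman -0.48), as did Angptl4 and Acss1 (r -0.45, Spearman -0.36). The 2 tested Cpt1a probe sets were unrelated, at -0.032. All values come from the same 17 arrays and share their scaling, and these correlations are descriptions only.

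**Figure D4:**
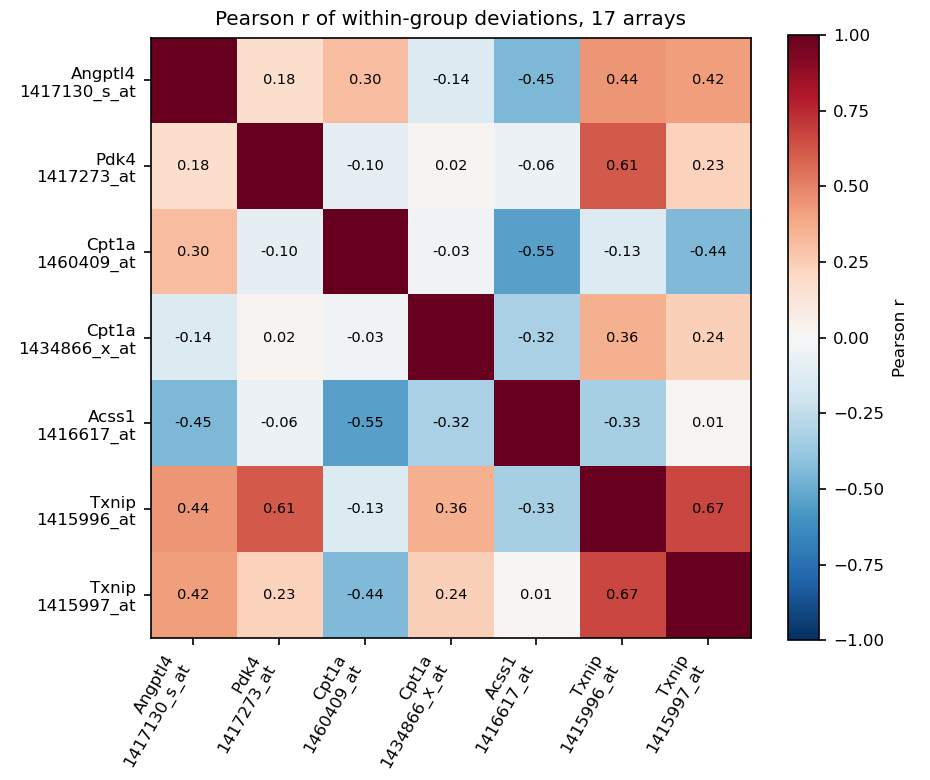
Pearson r (colour and number) of each pair of member probe sets, from deviations of log2 signal from the group mean over 17 arrays; rows and columns are the same 7 probe sets. The Txnip probe sets vary together at r 0.67, and Cpt1a and Acss1 run against each other at r -0.55.

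Among all other genes tested, those most like each member by the same measure over the 17 arrays were Cyp4v3, Lipt1 and Mak16 for Angptl4 (Pearson r 0.84, 0.83 and 0.83). For Pdk4 they were Hr, Sgk1 and Nfkbia (0.82, 0.79 and 0.78). Cpt1a on 1460409_at was closest to Add1, Ryr2 and Ankrd40 (0.87, 0.85 and 0.84). For Acss1 they were Ilf2, Ift172 and Trappc5 (0.87, 0.83 and 0.82), and for the brighter Txnip probe set Cnnm3, Tob2 and Osbpl11 (0.91, 0.87 and 0.86). With 13576 probe sets to choose from, high values arise easily over 17 arrays.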

How the data were processed

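RNA of 17 hypothalami was labelled as biotin cRNA from 10 µg each, per the labels' protocols. The deposited values are intensities on a linear scale: for each array the authors gave a MAS5 signal of every probe set, per the submitters' processing notes. The MAS5 version, the probe sets' genome build, batches and scan dates are not given in the sources used here. The 2% trimmed mean was the same on every array (1500.37 to 1500.43), which shows a scaling of the arrays to 1 mean before deposit.

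Gene symbols came from the platform annotation: 20380 probe sets had 1 symbol, 691 several and 1555 none, and no probe set, of 1 symbol or several, lists Ucp2. The 64 control probe sets and probe sets in the dimmest 40% by mean log2 signal (below a geometric mean of 434.856) were left out, which left 13576. Of the member probe sets, 5 of 11 fell below, and their values come from a fit without that filter. One limma 3.58.1 model of the 3 group means (lmFit, eBayes with a trend, R 4.3.3, statmod 1.5.0) gave the contrasts, with Benjamini-Hochberg adjustment over all probe sets tested and a threshold of 0.05. Nothing in the labels says how the hypothalami of a group were housed or processed together, so the p-values speak only of the spread among these arrays. Marker lists were compared by exact permutation tests over arrays. Figures were drawn with matplotlib 3.10.9 in Python 3.11.15, from tables read with pandas 2.3.3. Promoters are RefSeq windows of 250 bases, and 5 of the 6 members had one. The procedure was tested on simulated data.

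The members and gene lists were chosen with earlier results of these data known. Every member probe set is named whatever its values. From each list the text takes genes past the threshold, the 2 with the smallest p in each comparison and paralogs of the members (Cpt1b, Cpt1c and Acss3 are not analysed here), each by its brightest probe set (_x_at ones, which can cross-hybridize, only where there was no other), and for each member the 3 most correlated genes. Replicate numbers come from the titles and were not used as pairs in the main test. Same-numbered arrays correlated by -0.165 to 0.109 after group means were taken off, and differently numbered arrays of different groups by up to 0.398. Low values cannot show that mice were not paired in some way. Alternatives covered the filter, scaling, offset, trend, array weights, groups fitted, replicate block, marker covariates and each array left out.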

Additional observations from a re-analysis of the deposited data

Results flagged for a closer look

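Both results that stood out concern the dimmer Txnip probe set, 1415997_at. Array 5 of the ob/ob mice, at 603.2, lay far below the other ob/ob arrays, of which the nearest had 753.6. On the log2 scale the gap was 0.824 of the group's whole range. Array 4 of the control mice, at 89.9, lay below its nearest neighbour at 431.2 by 0.783 of the range, again on the log2 scale. Of the 33 groups of member values examined 2 stood out in this way, and chance alone gives about 1 in 20.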

How the results depend on the processing

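No member probe set passed the threshold among 363 differences refitted under alternatives or 374 refitted without 1 array, and 20 and 30 of these changed sign. Acss1 on 1416617_at and Angptl4 on 1417130_s_at changed sign in none of them. Signs turned mainly where a difference was small against its error, and the cause was not tested. For Acss1 1437582_at, ob/ob against STZ came to -0.0186 with an offset of 50, -0.358 with array weights, -0.0138 with the replicate block, -0.141 with the neighbouring region level, -0.0291 with the astrocyte level and -0.0344 with the vascular level. Its ob/ob against control value was -0.209 with array weights and -0.480 with the neighbouring region level, and its STZ against control value -0.339 with the same covariate. Txnip 1415997_at, ob/ob against STZ, gave 0.00890 with array weights, 0.0852 with the replicate block and 0.111 with the neighbouring region level. With the astrocyte level, ob/ob against STZ was -0.212 for Angptl4 1453410_at and -0.0554 for Txnip 1415996_at. With the vascular level, STZ against control was 0.0469 for Cpt1a 1434866_x_at, and ob/ob against control was 0.0109 for Cpt1a 1438156_x_at and 0.0146 for Acss1 1437583_x_at. The mean of the tested Cpt1a probe sets gave -0.0250 in STZ and 0.0415 in ob/ob against control mice, and 0.0665 in ob/ob against STZ mice.

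Leaving out 1 array at a time, Acss1 1437582_at ran from -0.261 to 0.467 in STZ and from -0.359 to 0.314 in ob/ob against control mice, and from -0.415 to 0.313 in ob/ob against STZ mice. In ob/ob against control mice Acss1 1437583_x_at ran from -0.142 to 0.0281, Cpt1a 1438156_x_at from -0.109 to 0.00634, Cpt1a 1460409_at from -0.100 to 0.0155 and Pdk4 from -0.00819 to 0.216. Angptl4 1453410_at ran from -0.00392 to 0.755 in STZ against control and from -0.220 to 0.489 in ob/ob against STZ mice. Txnip 1415996_at ran from -0.0432 to 0.115 and Txnip 1415997_at from -0.167 to 0.0867 in ob/ob against STZ mice.

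Over all probe sets, 7 passed in STZ against control, 17 in ob/ob against control and 5 in ob/ob against STZ mice. In ob/ob against control mice the count was 32 with quantile normalization, 11 with median centring, 38 with array weights, 6 with only those groups fitted, 76 with the vascular level and 0 with the neighbouring region level (limma, 1277 at an unadjusted p under 0.05). In ob/ob against STZ mice it was 1 without the filter, 3 with a filter at the 60th percentile, 10 with array weights, 1 with only those groups, 1 with the neighbouring region level and 10 with the vascular level. With the vascular level it was 18 in STZ against control mice. The replicate block gave 5, 19 and 1, the last moved from 5. With 1 array left out the counts ran from 0 to 18 in STZ against control, 8 to 43 in ob/ob against control and 1 to 9 in ob/ob against STZ mice. The 0 came without STZ array 4 or 5 (934 and 875 at an unadjusted p under 0.05). The astrocyte and vascular covariates were chosen after seeing the data.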
